A study of Homo sapiens with 4 samples.

Results

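Small promoter to distal loops are pairs of genomic bins that contact each other more often than their surroundings, that lie at most 90 kb apart, and of which exactly 1 holds the 5′ end of a protein-coding gene. They were chosen from the chromatin loops called in 4 Hi-C libraries of MDA-MB-231 cells. A loop was a member if its bins started at most 90 kb apart, if its span did not lie inside a single protein-coding gene, and if 1 of its 2 anchors, extended by 5 kb on each side, contained the 5′ end of a protein-coding gene in GENCODE release 44 mapped to GRCh37. Over the 4 loop lists, 5424 of 52058 distinct loops met the rule. The other anchor of these loops is called the distal anchor here.

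MDA-MB-231 is a wild-type human line of triple negative breast cancer, a form that lacks oestrogen receptor, progesterone receptor and HER2 amplification. The cells were treated for 48 h with 75 nM THZ1, a covalent inhibitor of the kinase CDK7, or with the solvent DMSO as vehicle. Each condition had 2 Arima-HiC libraries, which the design text calls technical replicates, so no p-value below measures the spread between independent experiments. At the loops tested for strength, the libraries of a condition differed by no more than counting noise. With 2 libraries against 2, the exact two-sided permutation test over the 6 ways to divide the 4 libraries cannot go below p = 0.333. For these tests the values of all 4 libraries are therefore given.

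In a Hi-C library, formaldehyde fixes DNA segments that are close together in the nucleus, and the number of read pairs that join 2 bins measures how often they met. Loops between promoters and distal elements can bring enhancers to their genes. Many stable loops form where cohesin, a ring complex that extrudes DNA, is halted by the DNA-binding protein CTCF, and there the CTCF motifs of both anchors usually point towards each other. This arrangement is called convergent. CDK7 is the kinase of the general transcription factor TFIIH and phosphorylates RNA polymerase II at promoters.

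Convergent CTCF core motifs marked a small subset of the loops whose number differed least between the conditions, and 4 pairs are printed to show what such a loop looks like in sequence. The core searched was CCANNAG followed directly by NNGGC, on both strands, where N is any base. Each line gives 60 bases of the GRCh37 genome, 5′ to 3′ on the strand of the core, with the 12 bases of the core in capitals. The HAP1 pair belongs to a loop with one of the highest enrichments, the IDE and ORAI1 pairs to the loops with the largest and the smallest decrease among convergent pairs that had exactly 2 cores outside exons, and the DDX27 pair to the highest enrichment among the rest of these.
HAP1 promoter anchor, forward strand, chr17:39894392-39894451: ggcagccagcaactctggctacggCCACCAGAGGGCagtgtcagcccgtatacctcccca
HAP1 distal anchor, reverse strand, chr17:39957983-39958042: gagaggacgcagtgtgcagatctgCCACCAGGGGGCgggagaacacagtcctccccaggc
DDX27 promoter anchor, reverse strand, chr20:47833805-47833864: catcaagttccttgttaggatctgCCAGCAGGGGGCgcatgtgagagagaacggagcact
DDX27 distal anchor, forward strand, chr20:47749606-47749665: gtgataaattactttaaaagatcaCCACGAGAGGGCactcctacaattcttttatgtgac
IDE promoter anchor, reverse strand, chr10:94334896-94334955: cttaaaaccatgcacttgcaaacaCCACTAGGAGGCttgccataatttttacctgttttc
IDE distal anchor, forward strand, chr10:94276923-94276982: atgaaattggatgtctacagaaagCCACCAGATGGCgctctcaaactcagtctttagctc
ORAI1 promoter anchor, reverse strand, chr12:122062656-122062715: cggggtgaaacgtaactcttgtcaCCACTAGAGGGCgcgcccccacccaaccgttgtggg
ORAI1 distal anchor, forward strand, chr12:121990676-121990735: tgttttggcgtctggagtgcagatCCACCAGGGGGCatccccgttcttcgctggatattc
In every pair the core of the anchor with the lower coordinates lay on the forward strand and that of the other anchor on the reverse strand. A match is a description of sequence, and CTCF binding was not measured here.

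Promoters with these loops more often held the GC box GGGCGG, the motif of the Sp1 family of activators. The 250 bases before the RefSeq start are printed for PIM1, the gene with the most loops, and for FN1, a mesenchymal gene whose loops were called in both vehicle libraries only. Capitals mark the matches that do not overlap, on either strand.
PIM1 promoter, plus strand, GRCh38.p14 chr6:37169902-37170151: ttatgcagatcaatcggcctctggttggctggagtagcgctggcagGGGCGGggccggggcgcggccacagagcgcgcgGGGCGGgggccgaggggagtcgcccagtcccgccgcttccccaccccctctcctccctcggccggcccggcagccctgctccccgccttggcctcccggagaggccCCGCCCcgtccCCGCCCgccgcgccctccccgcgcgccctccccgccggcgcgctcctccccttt
FN1 promoter, minus strand, GRCh38.p14 chr2:215436069-215436318: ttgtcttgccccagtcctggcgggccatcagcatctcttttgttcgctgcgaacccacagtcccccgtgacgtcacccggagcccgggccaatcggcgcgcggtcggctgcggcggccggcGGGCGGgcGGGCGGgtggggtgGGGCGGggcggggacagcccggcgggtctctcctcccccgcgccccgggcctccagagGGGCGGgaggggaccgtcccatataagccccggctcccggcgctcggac
Each of these promoters held 4 such matches. They are not typical of the promoters examined this way: those of FOSL2 and MMP14 held 1 each and that of EREG held 0. These are not printed. Of the looped genes, 3280 had a RefSeq promoter sequence, and 66.6% of them held the GC box on either strand, compared with 56.8% of all 15318 protein-coding genes with a sequence. The looped promoters also had a higher median GC content, 65.7% against 63.0%, and more CpG dinucleotides, a median of 21 against 17, and the part of base composition in the GC box share was not tested. The share was 69.0% of 606 genes looped in all 4 lists and 65.6% of 508 genes looped in both vehicle lists only.

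THZ1-treated cells had fewer called small promoter to distal loops as vehicle-treated cells. The vehicle libraries held 2625 and 2984 of them, and the THZ1 libraries 1511 and 1338. Both THZ1 values lay below both vehicle values. The means were 2804.5 ± 254 and 1424.5 ± 122 (SD, n = 2 libraries each), a 1.97-fold difference, or -0.98 on the log2 scale, with single THZ1 to vehicle comparisons ranging from -1.16 to -0.80 (exact permutation p = 0.333). In comparison, loops over 90 kb numbered 13028 and 15309 in vehicle and 12709 and 11220 in THZ1, a log2 difference of -0.24. The other loops of 90 kb or less differed by as much as the promoter to distal ones. The log2 difference was -0.96 for promoter to promoter loops, -1.05 for loops inside a single gene and -1.0 for loops with no promoter.

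The difference in number was thus shared with the other small loops. They made up 12.6% and 12.3% of all loops in vehicle and 8.77% and 8.88% in THZ1. With 10 kb anchors only, the share of all loops was 7.92% and 6.75% in vehicle and 5.81% and 6.82% in THZ1, which overlap. As a share of loops of 90 kb or less, they made up 33.9% and 33.5% in vehicle and 33.5% and 34.8% in THZ1. That share overlapped between the conditions, with a difference of 0.433 percentage points (exact permutation p = 1.00). Counting error alone gave Wilson 95% intervals of 32.9% to 34.98% for the first vehicle library and 33.3% to 36.3% for the second THZ1 library.

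**Figure D1:**
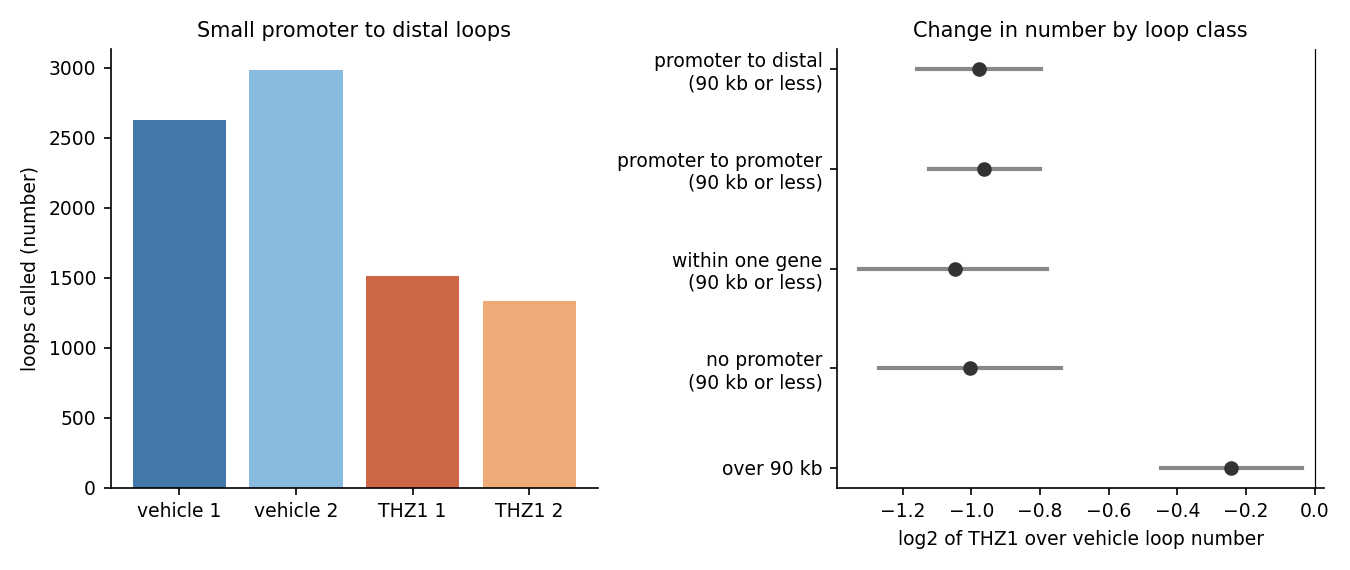
Left, bars give the number of small promoter to distal loops called in each library. Right, points give the log2 of the THZ1 mean over the vehicle mean for each loop class and lines span the lowest to highest of the 4 single THZ1 to vehicle comparisons, with the classes of 90 kb or less at -1.05 to -0.96 and loops over 90 kb at -0.24.

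The read pairs counted at the peak bins of all called loops summed to 622305 and 762701 in vehicle and to 631600 and 551436 in THZ1. The median per loop was 25 and 26 in vehicle and 30 in both THZ1 libraries. These values rest on the loops that each library called. At the 335 promoter to distal loops called in all 4 lists, the median was 42 and 50 read pairs in vehicle and 42 and 38 in THZ1, so the second vehicle library was highest and the second THZ1 library lowest, as in the number of loops. The part of depth in the number of calls was not tested.

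The shortest loops differed most in number. Loops of 35 to 40 kb, the smallest size called, numbered 769 and 886 in vehicle and 378 and 321 in THZ1, a log2 difference of -1.24. Loops of 85 to 90 kb, at the upper limit of the rule, numbered 278 and 331 in vehicle and 180 and 159 in THZ1, a difference of -0.85. Just outside the limit, promoter to distal loops of 95 to 100 kb numbered 290 and 350 in vehicle and 233 and 187 in THZ1, a difference of -0.61. The size classes of 35 to 90 kb did not overlap between conditions in any case, and the intermediate classes lay between -0.98 and -0.74.

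The width of the bins mattered to the size of the difference. Loops called with 5 kb bins numbered 2224 and 2616 in vehicle and 1241 and 1048 in THZ1, a log2 difference of -1.08. Loops called with 10 kb bins numbered 401 and 368 in vehicle and 270 and 290 in THZ1, a difference of -0.46. The mean size was 56.7 and 56.5 kb in vehicle and 58.5 and 58.8 kb in THZ1. The median distance from the 5′ end to the middle of the distal anchor was 53.8 and 53.4 kb in vehicle and 56.0 and 56.6 kb in THZ1 (exact permutation p = 0.333).

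**Figure D2:**
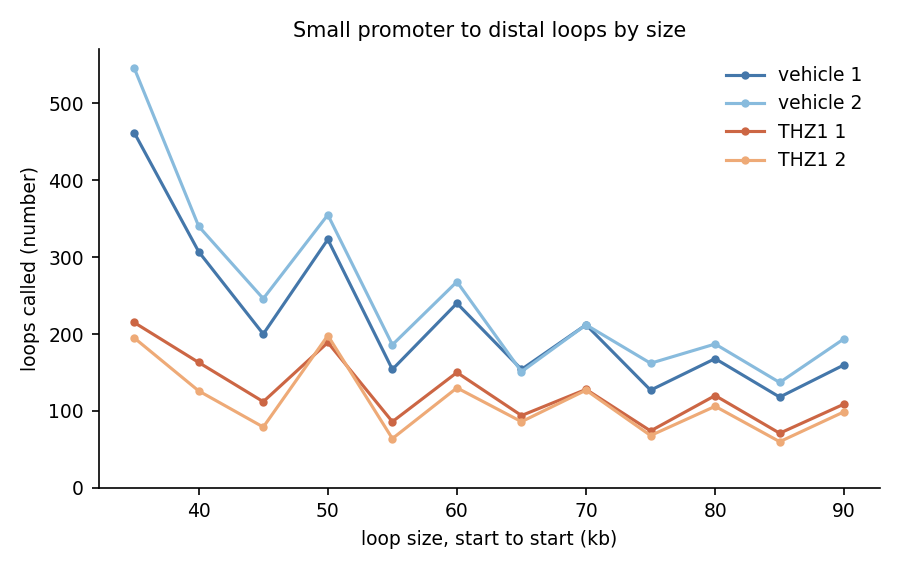
The number of small promoter to distal loops (vertical axis) is plotted against the distance between the starts of their anchors in kb (horizontal axis), with 1 line per library. Both THZ1 lines run below both vehicle lines, and the gap is widest at the shortest loops.

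Most promoter anchors served a single gene, and among the loops kept by the rule the distal anchors lay on both sides of it about equally. Between 82.1% and 83.9% of the loops of a library had 1 protein-coding gene at the promoter anchor. The distal anchor lay upstream of the promoter in 52.5% and 51.7% of vehicle loops and in 53.5% and 52.3% of THZ1 loops, leaving out the loops with promoters on both strands, so the conditions overlapped. Its middle lay in the body of the promoter's own gene in 25.5% to 26.9% of loops, in another protein-coding gene in 28.2% to 29.5%, and outside protein-coding genes in 43.8% to 46.3%. The rule left out loops whose span lay inside a single gene, which can remove downstream loops into the promoter's own gene. The upstream and own-gene shares therefore depend on the rule and do not describe all promoter loops. A lncRNA, a long transcript without a coding sequence, began at the distal anchor in 17.6% to 18.9%.

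Many loops reached over a nearer promoter. A protein-coding 5′ end lay between the anchors in 26.2% and 27.0% of vehicle loops and in 29.0% and 28.6% of THZ1 loops. The looped gene was the gene nearest to the distal anchor in 48.7% and 48.1% of vehicle loops and in 45.2% and 46.1% of THZ1 loops. Both measures separated the conditions by a few percentage points, in the direction of the slightly longer loops of THZ1.

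The loops lay within larger structures in both conditions. Between 86.0% and 90.9% of them were nested in a larger loop of the same library. A contact domain, a stretch of chromatin with dense internal contacts, enclosed 23.1% and 27.1% of the vehicle loops and 41.0% and 41.6% of the THZ1 loops. The THZ1 libraries also had more domains, 2477 and 2345 against 1198 and 1398, and the part of that number in the enclosed share was not tested. The promoter anchor was shared with another loop of the library for 67.0% and 72.3% of vehicle loops and for 56.7% and 55.1% of THZ1 loops. The distal anchor was shared for 52.8% and 56.1% in vehicle and for 47.5% and 44.2% in THZ1. The vehicle libraries also had more loops to share with, 20768 and 24219 against 17222 and 15066, and the part of that number was not tested.

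Few loops called with THZ1 were absent from vehicle. Loops were matched when the middles of both anchors lay within 20 kb of each other, whatever class the second loop had. Of the loops of the first THZ1 library, 85.6% and 88.2% had a match in the vehicle libraries, and of the second, 87.6% and 89.5%. In the opposite direction, 50.4% and 45.2% of the loops of the first vehicle library and 46.8% and 42.1% of the second had a match in the THZ1 libraries. Other small loops gave similar shares, from 80.2% to 87.3% for THZ1 loops matched in vehicle and from 38.0% to 48.3% for vehicle loops matched in THZ1. The matches between libraries of the same condition were 78.6% and 70.9% for vehicle and 64.1% and 72.3% for THZ1.

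Loops called in each vehicle library but in no THZ1 library numbered 613 in the first vehicle list, or 23.4%, and 624 in the second, or 20.9%. Over all loops of any size the same rule took 16.4% and 14.2%, and over the other classes of small loops it took 23.9% to 24.7% of the first list and 20.2% to 22.4% of the second. Loops of both THZ1 libraries and neither vehicle library numbered 10 and 14, or 0.662% and 1.05%, against 4.58% and 5.38% of all loops and 0.361% to 2.65% of the other small classes. Leaving out 1 THZ1 or vehicle library moved the first count to between 821 and 1296 and the second to between 35 and 107. Fewer lists must then hold the loop, or fewer must lack it.

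Loops called in all 4 lists were stronger in vehicle than loops called in vehicle libraries only. Strength is given as the observed read pairs at the peak bins divided by those expected from a ring of bins around them, the donut expected value. In the first vehicle library, 909 loops called in all 4 lists had a median of 36 read pairs and a median strength of 4.78, and the 613 loops of both vehicle libraries only had 24 read pairs and a strength of 3.57. In the second vehicle library the values were 40 read pairs and 4.88 for 932 loops, compared with 27 read pairs and 3.51. The loops of both vehicle libraries only were also shorter, with a median of 50 kb in each list against 55 and 60 kb. Loops of 1 vehicle list alone, unmatched even in the other vehicle list, had median strengths of 3.53 and 3.40 and a median size of 50 kb. Lower strength and shorter size were thus not particular to loops missing only from THZ1. The loop calls themselves rest on these counts.

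The 335 loops called at identical bins in all 4 libraries had lower strength in both THZ1 libraries. Their median strength was 5.51 and 5.68 in vehicle and 3.89 and 3.76 in THZ1. The median read pairs were 42 and 50 in vehicle and 42 and 38 in THZ1, which overlap, while the median donut expected value was 7.62 and 8.91 in vehicle and 10.5 and 9.94 in THZ1. The lower strength thus came with a higher expected count around the loop and overlapping counts at its peak. Both counts are raw and not adjusted for depth. With no expected value and TMM normalization, the median log2 change was -0.20 for these loops. For loops over 90 kb it was 0.10. Loops over 90 kb also had higher donut expected values with THZ1, at 4.42 and 4.15 against 2.96 and 3.35 in vehicle. Other small loops of all 4 lists had strengths of 5.37 and 5.42 in vehicle and 3.84 and 3.66 in THZ1.

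**Figure D3:**
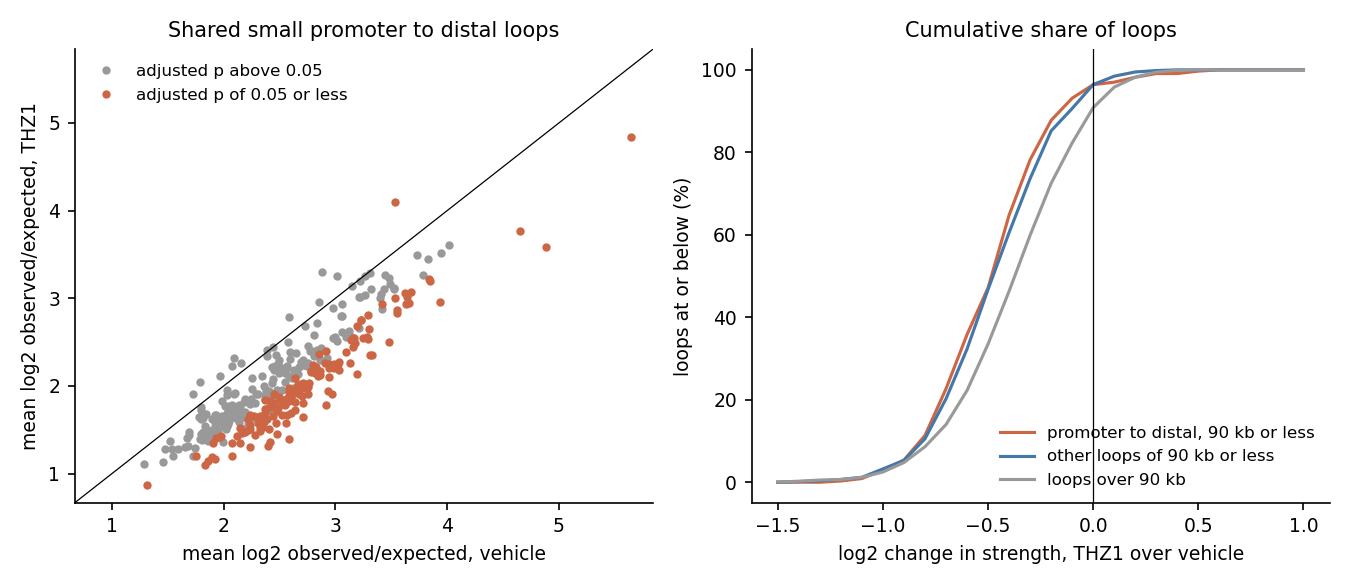
Left, each point is 1 of the 335 small promoter to distal loops of all 4 lists, with the mean log2 of observed over expected read pairs in THZ1 against that in vehicle, the line marks equality and colour marks an edgeR adjusted p of 0.05 or less. Right, curves give the percent of loops at or below each log2 change in strength, with the median of promoter to distal loops at -0.49.

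The fit was made over all 2617 loops of any class with identical bins in the 4 lists and with all expected values above 0, by the quasi-likelihood test of edgeR with the donut expected value as offset and Benjamini-Hochberg adjustment. Of the 335 promoter to distal loops, 139 had lower strength with THZ1 at an adjusted p of 0.05, or 41.5%, where 27.6% of all loops tested did. Only 1 of them was higher, where 0.0382% of all loops were. The share called lower was 40.6% for promoter to promoter loops, 37.7% inside a single gene, 35.8% with no promoter and 21.2% over 90 kb. It was thus near that of the other small loops. The number of promoter to distal loops called lower depended on the setting. It was 14 with DESeq2, 9 with the horizontal expected value, taken from the bins of the same row, as offset, 36 with no expected value and TMM normalization (with 3 higher, and 108 lower and 67 higher over all loops), 43 without the first vehicle library and 0 without each of the others. Of the 335 log2 changes, 323 were negative in the fit, 299 with the horizontal expected value and 246 with no expected value.

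The median log2 change was -0.49 for promoter to distal loops, -0.47 for the other loops of 90 kb or less and -0.41 for all loops tested. The 5th to 95th percentiles of the promoter to distal loops ran from -0.93 to -0.03. Both THZ1 libraries lay below both vehicle libraries for 275 of the 335 loops, where 68.8% of all loops did, and above them for 5, where 1.18% did. Of 178 loops of 50 kb or less, 82 were lower, with a median of -0.52, and of 157 longer loops 57 were, with a median of -0.45. Loops with an upstream distal anchor had a median of -0.48 and those with a downstream one -0.49.

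Relative to other small loops, the strength of promoter to distal loops overlapped between the conditions. The median log2 strength of promoter to distal loops exceeded that of the other small loops by 0.04 and 0.07 in vehicle and by 0.02 and 0.04 in THZ1, a difference of -0.02 (exact permutation p = 0.667). Over loops with at least 20 read pairs in every library, the excess was 0.03 and 0.06 in vehicle and 0.01 in both THZ1 libraries, without overlap (exact permutation p = 0.333).

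The largest decreases passing the test were at HLA-DRB5, PPM1M, TIMM50 and USO1. HLA-DRB5 encodes the beta chain of an antigen-presenting class II molecule, and its 45 kb loop at chr6:32455001-32505000 had 30 and 21 read pairs in vehicle and 17 and 15 in THZ1. Its strength was 45.6 and 19.1 in vehicle and 15.2 and 9.43 in THZ1, a log2 change of -1.29 (SE 0.34, edgeR adjusted p = 0.0116). The expected values behind these ratios were only 0.657 to 1.59 read pairs, the HLA-DRB genes share near-identical sequence to which reads map with uncertainty, and with the horizontal expected value the change was 0.49 in the opposite direction. Leaving out 1 library moved it from -1.94, without the second vehicle library, to -0.69, without the first.

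At PPM1M, a protein phosphatase gene whose promoter anchor it shared with a second gene, a 40 kb loop at chr3:52270001-52315000 had 69 and 67 read pairs in vehicle and 44 and 35 in THZ1. Its strength was 6.37 and 5.68 in vehicle and 2.68 and 2.56 in THZ1 (log2 change -1.19, SE 0.19, edgeR adjusted p = 0.00149). This decrease showed in the read pairs themselves, with no overlap between conditions. Its distal anchor lay in WDR82, a gene of a histone methyltransferase complex.

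TIMM50 encodes a subunit of the mitochondrial inner membrane translocase. Its 35 kb loop, chr19:39935001-39975000, had 41 and 50 read pairs in vehicle and 47 and 32 in THZ1, and strengths of 7.66 and 7.41 against 4.48 and 2.63 (log2 change -1.11, SE 0.23, edgeR adjusted p = 0.0039). The distal anchor lay in SUPT5H, a gene of the elongation factor DSIF. In contrast to PPM1M, the read pairs of this loop overlapped between the conditions.

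A 50 kb loop at chr4:76595001-76650000 joined the shared promoter anchor of USO1, a vesicle tethering factor, and G3BP2, a stress granule protein, to the body of G3BP2. It had 35 and 56 read pairs in vehicle and 39 and 34 in THZ1, and strengths of 6.52 and 9.45 against 3.98 and 3.55 (log2 change -1.09, SE 0.22, edgeR adjusted p = 0.00369). The read pairs of this loop overlapped between the conditions. The changes of the PPM1M, TIMM50 and USO1 loops were negative under each of the 12 alternatives run, but under 4 to 7 of these they did not pass the threshold. With no expected value and TMM normalization the TIMM50 change was -0.19 (edgeR adjusted p = 0.681) and the USO1 change -0.30 (edgeR adjusted p = 0.474).

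POP4 had the only loop that passed the test as higher with THZ1. POP4 encodes a protein subunit of RNase P, and its 80 kb loop at chr19:30100001-30185000 had 28 and 33 read pairs in vehicle and 60 and 50 in THZ1. The strength was 11.3 and 11.9 in vehicle and 18.5 and 15.9 in THZ1 (log2 change 0.57, SE 0.20, edgeR adjusted p = 0.0456). The read pairs did not overlap between conditions, but under 7 of the 12 alternatives the change did not pass the threshold.

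The strongest loops of all 4 lists included POP4, both HLA-DRB5 loops, SSBP3 and HAP1. SSBP3, a gene of a cofactor of LIM-domain transcription complexes, had an 80 kb loop at chr1:54870001-54955000 with 152 and 150 read pairs in vehicle and 111 and 88 in THZ1. Its strength was 28.5 and 22.2 in vehicle and 15.9 and 11.5 in THZ1 (log2 change -0.88, SE 0.18, edgeR adjusted p = 0.0039). A 35 kb loop of HLA-DRB5, chr6:32490001-32530000, had strengths of 49.6 and 50.2 in vehicle and 33.5 and 24.4 in THZ1 (log2 change -0.83), with the same uncertainty of mapping.

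HAP1 encodes a partner of huntingtin, and its 65 kb loop at chr17:39890001-39960000 carried the convergent pair printed above. It had 71 and 74 read pairs in vehicle and 94 and 57 in THZ1, and strengths of 16.8 and 15.6 against 14.5 and 10.3 (log2 change -0.37, SE 0.18, edgeR adjusted p = 0.136). The read pairs of the THZ1 libraries lay on both sides of the vehicle values, and leaving out 1 THZ1 library moved the change to -0.65, without the first, or to -0.15, without the second.

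**Figure D4:**
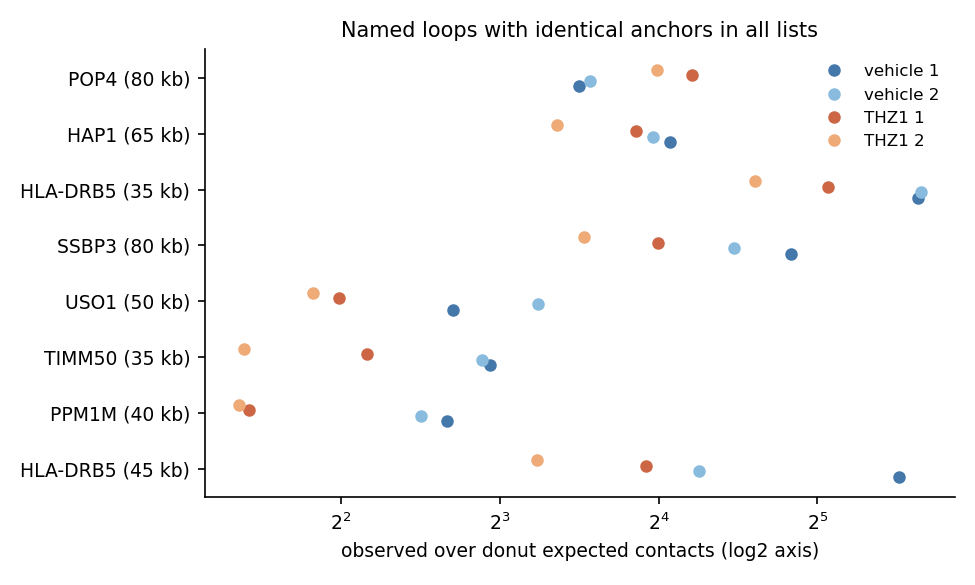
Points give the observed over donut expected read pairs of 8 named loops in each library on a log2 axis, with the loop size in brackets. For POP4 both THZ1 points lie to the right of the vehicle points, and for the other loops both lie to the left.

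The strongest loops called in each vehicle library but in no THZ1 library lay at genes of varied function. The 45 kb loop of CEP72, a centrosomal protein, at chr5:610001-660000 had strengths of 7.59 and 8.06 on 19 and 24 read pairs. That of TMEM164, an integral membrane protein, at chrX:109245001-109335000 had 6.95 and 7.16 on 15 and 16 read pairs. The loop of BEST1, a chloride channel, at chr11:61635001-61720000 had 6.70 and 7.82 on 20 and 27 read pairs.

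The loop of NUP50, a nuclear pore protein, at chr22:45500001-45560000 had strengths of 6.75 and 6.61, and that of TMEM18 at chr2:675001-745000 had 8.35 and 6.64. The loop of CTSL, the lysosomal protease cathepsin L, had 7.33 and 5.86, and that of PPP1R7, a regulatory subunit of protein phosphatase 1 that shares its promoter anchor with the kinase gene PASK, had 6.17 and 6.02. The loop of CDK11B, a kinase of splicing and the cell cycle, ended in its near-identical neighbour CDK11A and had 7.23 and 6.41 on 13 and 12 read pairs. None of these 8 loops had a convergent core motif. Such pairs were rare among all loops of both vehicle libraries only, at 2.12% of 613 and 1.76% of 624, so 8 loops cannot show a difference.

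The loops of both THZ1 libraries only were led by GJA3, a gap junction gene, with strengths of 6.17 and 4.02, and by NMNAT1, an enzyme of nuclear NAD synthesis that shares its promoter anchor with LZIC, with 3.77 and 4.40. Next came KLF10, a TGF-beta-inducible transcription factor, with 3.52 and 3.82, an unnamed gene, ENSG00000288258, with 7.66 and 3.50, and MPHOSPH8, a subunit of the silencing complex HUSH, with 3.54 and 3.13. Read pairs at these 5 loops ran from 22 to 46. For GJA3 and ENSG00000288258 the second value belongs to a loop at other bins, matched within 20 kb. The donut expected values of the 2 libraries were 3.56 and 10.2 for GJA3 and 3.26 and 7.99 for ENSG00000288258.

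Counted once per gene, 2696 and 3055 protein-coding genes had a small promoter to distal loop in vehicle and 1659 and 1439 in THZ1, a log2 difference of -0.89 (exact permutation p = 0.333). Of 20149 annotated genes, 4183 had one in at least 1 list and 767 in all 4. Genes looped in both vehicle libraries and neither THZ1 library numbered 654, or 3.25% of annotated genes, and genes of both THZ1 libraries only numbered 44, or 0.218%. For 518 of the 654, but only 9 of the 44, no loop within 20 kb of any class was called in the other condition. A looped gene had a mean of 1.17 and 1.18 loops in vehicle and 1.09 and 1.10 in THZ1.

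The genes with the most loops over the 4 lists had loops in each condition. PIM1, a serine/threonine kinase of growth factor signalling, had 3 and 4 loops in vehicle and 3 in each THZ1 library. Its 65 kb upstream loop, chr6:37070001-37140000, had 133 and 136 read pairs in vehicle and 91 and 80 in THZ1, and strengths of 5.30 and 4.61 against 3.02 and 2.97 (log2 change -0.72, SE 0.16, edgeR adjusted p = 0.0050). Both the read pairs and the strength of this loop separated the conditions, and its 40 kb upstream neighbour was matched in all 4 lists.

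CDKN1A, the gene of the cell cycle inhibitor p21, had 3 and 4 loops in vehicle and 2 in each THZ1 library. Its 65 kb upstream loop, chr6:36580001-36650000, had 89 and 118 read pairs in vehicle and 80 and 72 in THZ1, and strengths of 5.85 and 6.96 against 3.78 and 3.74 (log2 change -0.77, SE 0.17, edgeR adjusted p = 0.00425). As at PIM1, neither measure overlapped between the conditions.

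BLK, a Src-family kinase of B cells, and its neighbour FAM167A shared a promoter anchor, which had 3 loops in every library. The 35 kb loop of this anchor had strengths of 6.38 and 9.12 in vehicle and 3.94 and 3.75 in THZ1 (log2 change -1.01, edgeR adjusted p = 0.00422). Its 65 kb loop had a log2 change of 0.22 that did not pass the test (edgeR adjusted p = 0.596). DNMBP, a guanine nucleotide exchange factor for CDC42, had 2 loops in each vehicle library and 3 in each THZ1 library, and its 35 kb loop fell by 0.68 on the log2 scale (edgeR adjusted p = 0.0139). NPAS2, a circadian transcription factor, had 4 and 3 loops in vehicle and 2 and 3 in THZ1, ATP2B4, a calcium pump, 4 and 2 against 3 and 2, PPM1B, a phosphatase, 3 and 4 against 2 in each, and ME3, a mitochondrial malic enzyme, 2 and 3 against 3 and 2.

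Gene lists were compared by how many members had a loop in at least 1 library, beside 20.8% of all annotated genes. The list of EGFR, MET and MAPK feedback genes had 11 of 15 with a loop, TGF-beta signalling 10 of 15, NF-kB and cytokine genes 9 of 16, mesenchymal genes 9 of 16 and AP-1 transcription factors 7 of 13. YAP and TEAD pathway genes had 7 of 15, cohesin and CTCF genes 5 of 11, condensin genes 3 of 8, luminal epithelial genes 4 of 14 and mitotic regulators 3 of 14. CDK7 complex and transcription kinase genes had 1 of 15. No test was made over these lists.

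Growth factor receptor genes had loops in all 4 lists. At EGFR, the receptor tyrosine kinase, 2 upstream loops were called in both vehicle libraries only, one of 85 kb with 33 and 41 read pairs and one of 35 kb with 38 and 61, and neither had a match in THZ1. Its loops into the gene body, of 45 and 55 kb, were matched in every list. MET, the receptor of hepatocyte growth factor, had an 80 kb upstream loop with 35 and 42 read pairs in vehicle and 48 and 27 in THZ1 (log2 change -0.37, edgeR adjusted p = 0.238). DUSP1, DUSP5 and SPRY4, which encode feedback inhibitors of MAPK signalling, also had loops in all 4 lists.

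EREG, an EGFR ligand, and PHLDA1 had member loops in both THZ1 libraries only, with 41 and 22 read pairs at EREG and 47 and 34 at PHLDA1. Both loops nevertheless had a match within 20 kb in each vehicle list, so these genes differ by how the nearby loop was classed.

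Of the TGF-beta genes, TGFBR1, SMAD2, SMAD3, SMAD6 and ID1 had loops in all 4 lists. ID2, an inhibitor of basic helix-loop-helix factors, had upstream loops in both vehicle libraries only, with 22 and 30 read pairs and strengths of 4.75 and 7.18, and no THZ1 match. Of the NF-kB and cytokine genes, NFKB2, NFKBIA, TNFAIP3, IL6 and CXCL8 had loops in all 4 lists. The 85 kb loop of NFKB2 had 36 and 45 read pairs in vehicle and 47 and 59 in THZ1, with strengths of 6.91 and 7.60 against 7.34 and 8.19 (log2 change 0.10, edgeR adjusted p = 0.735).

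Of the mesenchymal genes, CD44, a hyaluronan receptor, and ITGB1, the integrin beta-1 chain, had loops in all 4 lists. FN1, the gene of fibronectin, had a 90 kb upstream loop in both vehicle libraries only, called with 26 read pairs in 10 kb bins in the first and with 15 in 5 kb bins in the second, and with no match in THZ1. Loops of MMP14, a membrane-bound matrix protease, were members in both vehicle libraries only, but all had matches in the THZ1 libraries. The keratin genes KRT8 and KRT18, of the luminal list, shared loops found in all 4 lists.

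Among AP-1 genes, FOSL2 and ATF3 had loops in all 4 lists. The 35 kb loop of FOSL2 had 46 read pairs in each vehicle library and 37 and 35 in THZ1, and strengths of 4.38 and 3.88 against 3.40 and 3.41 (log2 change -0.27, edgeR adjusted p = 0.350). The 75 kb loop of ATF3 had 38 and 47 read pairs in vehicle and 33 and 36 in THZ1 (log2 change -0.37, edgeR adjusted p = 0.216). Neither loop passed the test.

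Among genes of chromosome structure, NIPBL, the loader of cohesin, had a 65 kb loop of 34 and 32 read pairs in both vehicle libraries only, with a match in 1 THZ1 library. The condensin subunit NCAPG2 had a 35 kb upstream loop with 34 and 45 read pairs in vehicle and 34 and 35 in THZ1 (log2 change -0.58, edgeR adjusted p = 0.0528). The mitotic kinesin KIF11 shares its promoter anchor with IDE, the insulin-degrading enzyme, and their 55 kb convergent loop had 41 and 46 read pairs in vehicle and 36 and 39 in THZ1, with strengths of 7.00 and 7.33 against 3.85 and 4.85 (log2 change -0.73, SE 0.21, edgeR adjusted p = 0.0152).

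The other printed pairs lay at loops that differed in their change. The 85 kb loop of DDX27, an RNA helicase of ribosome synthesis, at chr20:47745001-47835000 had strengths of 12.2 and 16.9 in vehicle and 8.48 and 9.88 in THZ1 (log2 change -0.68, edgeR adjusted p = 0.0131). The 70 kb loop of ORAI1, the channel of store-operated calcium entry, at chr12:121990001-122065000 had strengths of 5.36 and 5.09 in vehicle and 4.67 and 5.51 in THZ1 (log2 change -0.04, edgeR adjusted p = 0.906).

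CTCF core motifs were more frequent at the anchors than over the genome, and more frequent in the THZ1 lists. The core lay in 11.99% of all 5 kb windows and 22.1% of all 10 kb windows. In the vehicle libraries the promoter anchor held it in 25.5% and 24.2% of loops and the distal anchor in 27.5% and 25.9%. In the THZ1 libraries the promoter anchor held it in 28.5% and 30.0% and the distal anchor in 30.8% and 32.0%. The vehicle and THZ1 values did not overlap at either anchor (exact permutation p = 0.333). Median GC content was 48.8% to 49.0% at promoter anchors and 45.2% to 45.8% at distal anchors, where the windows of the genome had a mean of 40.9%, and the part of GC in the motif share was not tested.

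Convergent pairs were rare and were 3.50% and 3.22% of loops in vehicle and 5.10% and 6.13% in THZ1, while divergent pairs were 1.58% to 1.90% in each library with no separation. Loops over 90 kb had convergent cores in 10.9% and 10.1% in vehicle and 13.2% and 13.8% in THZ1. Small loops with no promoter had them in 3.88% and 3.84% in vehicle and 6.87% and 5.48% in THZ1. For promoter to promoter loops the values were 1.94% and 2.65% against 3.48% and 3.76%. For loops inside a single gene they were 2.24% and 1.71% against 3.37% and 2.14%, which overlap. The same direction thus held for larger loops, small loops with no promoter and promoter to promoter loops.

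In numbers, convergent promoter to distal loops differed least between the conditions. There were 92 and 96 in vehicle and 77 and 82 in THZ1, a log2 difference of -0.24. Loops with a core at one or both anchors but no convergent pair numbered 1083 and 1171 in vehicle and 665 and 601 in THZ1, a difference of -0.83. Loops with no core at either anchor numbered 1450 and 1717 in vehicle and 769 and 655 in THZ1, a difference of -1.15. The log2 ratio of convergent to no-core loops was higher in both THZ1 libraries than in both vehicle libraries, by 0.91 on average (exact permutation p = 0.333).

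**Figure D5:**
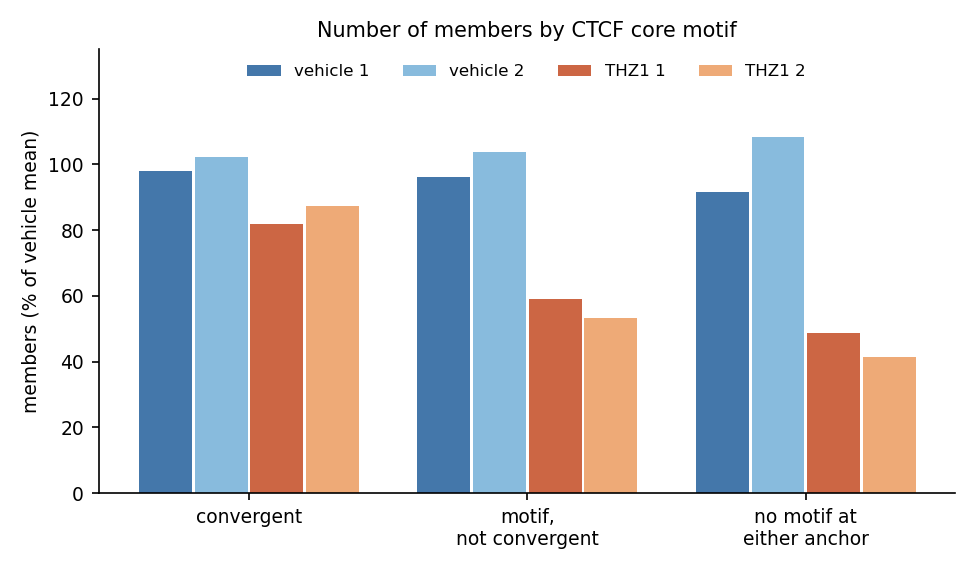
Bars give the number of small promoter to distal loops in each library as a percent of the vehicle mean (vertical axis) for loops with convergent CTCF core motifs, with a motif but no convergent pair, and with no motif at either anchor. The THZ1 libraries sit at 81.9% and 87.2% for convergent loops and at 48.6% and 41.4% for loops with no motif.

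The same order held among the loops with 5 kb bins, where convergent loops numbered 62 and 80 in vehicle and 63 and 62 in THZ1, and loops with no core 1271 and 1547 in vehicle and 668 and 545 in THZ1. It also held loop by loop. In the first vehicle library 66.3% and 63.0% of the 92 convergent loops had a match in the THZ1 libraries, compared with 47.5% and 41.3% of the 1450 loops with no core. In the second vehicle library 85.9% of the convergent loops of the first were matched, and 78.6% of those with no core.

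Of the 909 loops of the first vehicle library called in all 4 lists, 48 were convergent, or 5.28% (Wilson 95% interval 4.01% to 6.93%). Of the 613 called in both vehicle libraries only, 13 were, or 2.12% (1.24% to 3.59%). These intervals cover counting error only. Strength, in contrast, did not separate the groups. The 20 convergent loops of the fit had a median log2 change of -0.49 with 9 called lower, and the 173 with no core had -0.48 with 69 called lower.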

How the data were processed

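Hi-C libraries of MDA-MB-231 cells were processed by the authors with Juicer 1.6 on hg19, whose coordinates are those of GRCh37, and the list headers name juicer_tools 1.19.02. Settings of the loop caller are not given in the sources used here. The deposited loop lists hold, per library, observed counts of read pairs at the peak bins, the signal expected from 4 neighbourhoods, and q-values per the file headers. Domain lists were used for nesting only. The authors' lists of loops unique to a condition hold their own comparison of the conditions and were not used. Lists were read with Python 3.11.15 and GENCODE release 44, and the 4 libraries were grouped by their titles. Library values were compared by exact two-sided permutation tests. Strength was fitted with edgeR 4.0.16 in R 4.3.3 over 2617 loops with identical bins in all 4 lists. There were 2624 such loops, of which 7 were left out for an expected value of 0, a filter set after the first fits, and leaving out only those with a donut expected value of 0 gave 126 calls in place of 139. On simulated data the fit recovered 41% of 200 changed loops, 17% at 1.5-fold and 65% at 2-fold, with 2 false calls. Loops called in fewer lists have no count where they were not called and were not fitted.

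Members, gene lists and tests were chosen with earlier results of these data known. Named loops and genes were the 10 genes with the most loops over the 4 lists (ties in alphabetical order), up to 5 called loops per direction with the largest change (1 is not reported here), the 8 and 5 strongest loops of both vehicle or both THZ1 libraries only, the 5 strongest of all lists, and genes of the 11 gene lists looped in all 4 lists or in 1 condition only. IDE, DDX27 and ORAI1 were added for their sequences, and EGFR loops for their pattern, after their values were seen. Alternatives covered the promoter window, transcript starts, bin width, stricter loop filters, size limit, matching distance, the expected value, DESeq2 1.42.0, a count minimum, the motif, the replicate number as a block and each library left out.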

Additional observations from a re-analysis of the deposited data

How the results depend on the processing

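For 14 results, 116 alternatives were run, and 96 kept the direction, some with other sizes, while 4 reversed and 16 counts moved by over 1.5 times. The share of all loops ranged from -3.92 to -1.03 percentage points, and the convergent share from 0.62 to 2.77. The lower number of small promoter to distal loops with THZ1 held under all 12 of its alternatives, with log2 differences from -1.09 to -0.46, and the number of looped genes likewise from -1.07 to -0.48. The share among small loops turned to -1.34 percentage points with anchors not extended and ranged from -0.22 to 1.09 when a library was left out, so it has no settled direction. The upstream share turned to -3.45 percentage points with 10 kb anchors only, and the relative strength to 0.00010 over all called loops. The number of weaker loops was 139, against 9 with the horizontal expected value, 36 with TMM and no expected value, 14 with DESeq2, and 0 to 43 with a library left out, where loops at an unadjusted p under 0.05 numbered 132 without the second vehicle library, 155 without the first THZ1 library and 139 without the second. With a likelihood ratio test, added after seeing the data, it was 149. With a library left out, 1 condition holds a lone library, which is assumed to vary like the pair of the other condition. The HLA-DRB5 45 kb change turned to 0.49 with the horizontal expected value and the HAP1 change to 0.073 with TMM. Loops of both vehicle libraries only ranged from 821 to 1296 with a library left out, and those of both THZ1 libraries only from 35 to 107, with 38 when matched within 10 kb and 6 within 50 kb. The causes were not tested, apart from fewer libraries entering.

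Replicate numbers are shared by the conditions but name no common culture or day. Same-numbered libraries deviated together with r = 0.017 over 2617 loops, and with the replicate number as a block 147 loops were called lower. Between the libraries of a condition, counts at these loops differed by no more than counting noise, with a chi-square per loop of 0.797 to 0.834. With deviations that small, the correlation cannot show whether the numbers pair the libraries.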
